A study of Mus musculus with 3 samples.

Results

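The genes described here are the 8 members of a metalloprotease activation and inhibition system, namely the enzymes Mmp2, Mmp14, Mmp16 and Mmp23 and the tissue inhibitors Timp1, Timp2, Timp3 and Timp4. They were found by gene symbol in the platform annotation, 8 of 19321 named genes, each with 1 of the 23473 probes on the array. All 8 probes were detected on all 3 arrays, as were 18664 probes in all.

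RNA was taken from synovial cells of the pannus, the overgrown joint lining of chronic arthritis. The donors were D1BC mice, a DBA/1 strain with a murine CD80 (B7.1) transgene driven by the rat type II collagen promoter and enhancer, in which arthritis had been induced with bovine type II collagen. After an overnight culture the cells were kept for 48 h with CTLA-4-Ig (abatacept, the extracellular part of CTLA-4 joined to a human immunoglobulin Fc, which binds CD80 and CD86), with human IgG (hIgG, the protein control) or with vehicle (medium with serum). The comparison asked whether CTLA-4-Ig taken up by synovial cells alters the mRNA of metalloproteases, interleukins, chemokines and other cytokines.

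The transgene, the arthritis and the culture were common to all 3 conditions, and a condition without arthritis or without the transgene was not part of the comparison. The type II collagen promoter is known for its activity in cartilage cells. The titles gave the dose of CTLA-4-Ig and hIgG as 100 ug and the protocol label gave it as 100 mg/ml. The study's methods state a concentration per ml in ug, the unit of the titles. The age of the mice at culture, and whether the 3 cultures came from the same or from pooled mice, are not given in the sources used here. Each condition had 1 array. Hence no difference below has a replicate array, no p-value is given, and every ratio compares 2 arrays and not 2 conditions. Ratios are written as CTLA-4-Ig/hIgG, CTLA-4-Ig/vehicle and hIgG/vehicle, on the log2 scale unless given as folds.

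Gelatinase A, encoded by Mmp2, is secreted as an inactive proenzyme that cleaves denatured collagen and basement membrane once its prodomain is removed. At the cell surface this is done by membrane-type metalloproteases, above all MT1-MMP, encoded by Mmp14, which is itself a collagenase and is known from arthritis for carrying synovial fibroblasts into cartilage. TIMP2 has a double part: bound to MT1-MMP it docks the proenzyme for activation by a neighbouring free MT1-MMP, and in excess it blocks the enzymes.

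The stretches of 250 bases upstream of the annotated start are shown for Mmp14, Timp1, Timp2 and Timp3 because these genes, unlike the other members with an entry, carry a GC box (GGGCGG, either strand), the motif known to be bound by Sp family factors. They are from RefSeq on GRCm38.p6, read 5′ to 3′ on the strand of the gene, and capitals mark GC boxes. The windows lie at chr14:54431348-54431597 on the plus strand (Mmp14), chrX:20869916-20870165 on the plus strand (Timp1), chr11:118355412-118355661 on the minus strand (Timp2) and chr10:86300162-86300411 on the plus strand (Timp3).
Mmp14: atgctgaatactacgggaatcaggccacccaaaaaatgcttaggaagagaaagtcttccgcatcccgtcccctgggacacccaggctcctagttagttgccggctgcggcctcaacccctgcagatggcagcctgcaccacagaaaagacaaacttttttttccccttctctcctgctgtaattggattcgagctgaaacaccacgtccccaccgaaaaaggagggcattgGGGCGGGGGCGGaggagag
Timp1: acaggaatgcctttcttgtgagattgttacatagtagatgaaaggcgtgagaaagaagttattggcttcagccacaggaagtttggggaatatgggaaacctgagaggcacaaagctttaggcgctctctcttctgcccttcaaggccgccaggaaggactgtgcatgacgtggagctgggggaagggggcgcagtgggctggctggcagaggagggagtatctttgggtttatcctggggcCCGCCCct
Timp2: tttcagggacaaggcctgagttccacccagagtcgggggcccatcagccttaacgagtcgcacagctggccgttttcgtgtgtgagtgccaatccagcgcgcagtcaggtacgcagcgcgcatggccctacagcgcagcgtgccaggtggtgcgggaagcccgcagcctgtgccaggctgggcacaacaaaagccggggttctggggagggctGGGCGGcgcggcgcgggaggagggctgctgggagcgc
Timp3: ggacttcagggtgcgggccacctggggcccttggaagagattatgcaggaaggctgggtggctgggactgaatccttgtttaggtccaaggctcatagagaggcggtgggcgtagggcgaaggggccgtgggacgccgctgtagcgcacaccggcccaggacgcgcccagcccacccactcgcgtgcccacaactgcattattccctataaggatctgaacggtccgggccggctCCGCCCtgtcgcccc

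Mmp14 had 2 adjoining GC boxes, 19 to 14 and 13 to 8 bases before the start. Each inhibitor shown had 1, lying 8 to 3 bases before the start in Timp1, 37 to 32 in Timp2 and 15 to 10 in Timp3. A GC box was found in 32.7% of 32851 such windows over 27025 genes. GC content was 55.2% in Mmp14, 54.4% in Timp1, 68.0% in Timp2 and 65.6% in Timp3, beside a median of 52.4% over all windows. Entries were matched for 6 of the 8 members. Mmp2 and Mmp16 had no entry. The windows of Timp4 (53.6% GC) and the 2 windows of Mmp23 (61.2% and 62.0% GC) had no GC box. On either strand, no member window held the AP-1 motif TGANTCA (6.75% of all windows) or the TATA motif TATAAA (12.4%). A CCAAT box (CCAAT) was present in the windows of Mmp14, Timp1 and Timp2 and in 33.8% of all windows; the CCAAT box of Mmp14 nearest the start shares 1 base with its first GC box. These matches describe the letters of the windows and not binding in these cells.

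Detection was alike on the 3 arrays. Values are deposited normalized signals with the median of detected probes set to 25 on each array, and 84.0% of probes were detected with CTLA-4-Ig, 81.7% with hIgG and 81.4% with vehicle. The median log2 ratio over 15628 detected genes was 0.09 for CTLA-4-Ig/hIgG, 0.11 for CTLA-4-Ig/vehicle and 0.03 for hIgG/vehicle, and member ratios are to be read against these shifts. How far 2 control arrays differ was gauged by the SD of the log2 ratio of hIgG/vehicle among probes of similar signal, taken in 10 equal bins of mean signal. This yardstick was 0.47 in the dimmest bin and 0.16 in the brightest. The comparisons share arrays, since hIgG enters the first and the third, CTLA-4-Ig the first and the second, and vehicle the second and the third. A low hIgG value therefore gives a positive ratio in the first comparison and a negative one in the third.

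All 11 fibroblast markers and all 10 macrophage markers were detected on every array, where the labels name fibroblast-like synoviocytes only. The study's methods and text describe these cultures as holding both CD45- fibroblast-like synoviocytes and CD45+ macrophages. The summed signal of the fibroblast markers was 19637 with CTLA-4-Ig, 17906 with hIgG and 19267 with vehicle, and that of the macrophage markers was 39179, 36218 and 33662 in the same order. Most of the macrophage sum came from Lyz2, lysozyme, without which it was 7158 with CTLA-4-Ig, 7433 with hIgG and 6373 with vehicle, highest with hIgG. In such bulk RNA, fewer cells of a type and less RNA per cell cannot be told apart.

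Compared with hIgG, every member had more signal after CTLA-4-Ig, and compared with vehicle nearly every member had less signal after hIgG. The log2 ratio of CTLA-4-Ig/hIgG was above 0 for 8 of 8 members, beside 67.3% of all detected probes, and its median over members was 0.28. That of CTLA-4-Ig/vehicle was above 0 for 5 of 8 members, beside 68.4%, with a median of 0.16. That of hIgG/vehicle was above 0 for 1 of 8 members, beside 54.9%, with a median of -0.16. The hIgG array held the lowest signal of 7 of the 8 genes, beside 35% of all detected probes, and Mmp2 was the exception. The highest signal was on the CTLA-4-Ig array for Mmp2, Mmp14, Mmp23, Timp2 and Timp4, and with vehicle for Mmp16, Timp1 and Timp3, 3 of 8 beside 21.2%. The count of 5 of 8 for CTLA-4-Ig stands beside 55.6% of all detected probes.

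**Figure D1:**
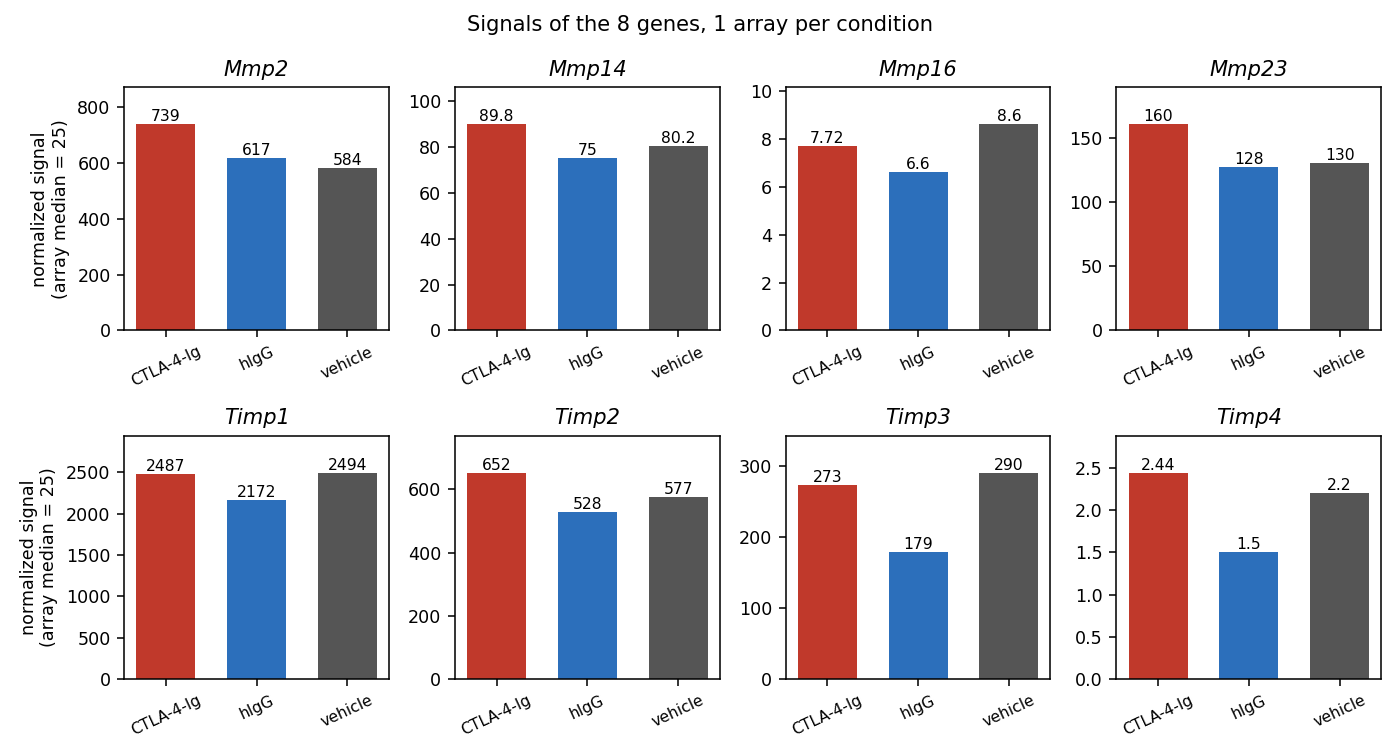
Normalized signals (linear axis from 0, array median of 25) of the 8 genes, with 1 bar each for CTLA-4-Ig, hIgG and vehicle. Timp3 stood at 273 with CTLA-4-Ig, 179 with hIgG and 290 with vehicle, the widest relative spread among the members with signals above 25.

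Few members passed a fold of 1.5. For CTLA-4-Ig/hIgG, 2 of 8 members, Timp3 and Timp4, were at least 1.5-fold higher, beside 3.58% of all detected probes. Members of at least 25 in mean signal leave out Mmp16 and Timp4. Of those, 1, Timp3, was 1.5-fold higher, beside 0.703% of the 9675 probes of at least 25 in mean signal. None was 1.5-fold lower, beside 1.13%, and none was 2-fold apart, beside 0.67%. For CTLA-4-Ig/vehicle, 0 of 8 members were 1.5-fold higher, beside 4.62%, 0 were 1.5-fold lower, beside 1.16%, and 0 were 2-fold apart, beside 0.868%. For hIgG/vehicle, 1 of 8, Timp3, was at least 1.5-fold lower, beside 1.86% of all detected probes. Among members of at least 25 in mean signal it was again the only 1, beside 0.351% of such probes. None was 1.5-fold higher, beside 2%, and 0 were 2-fold apart, beside 0.514%.

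**Figure D2:**
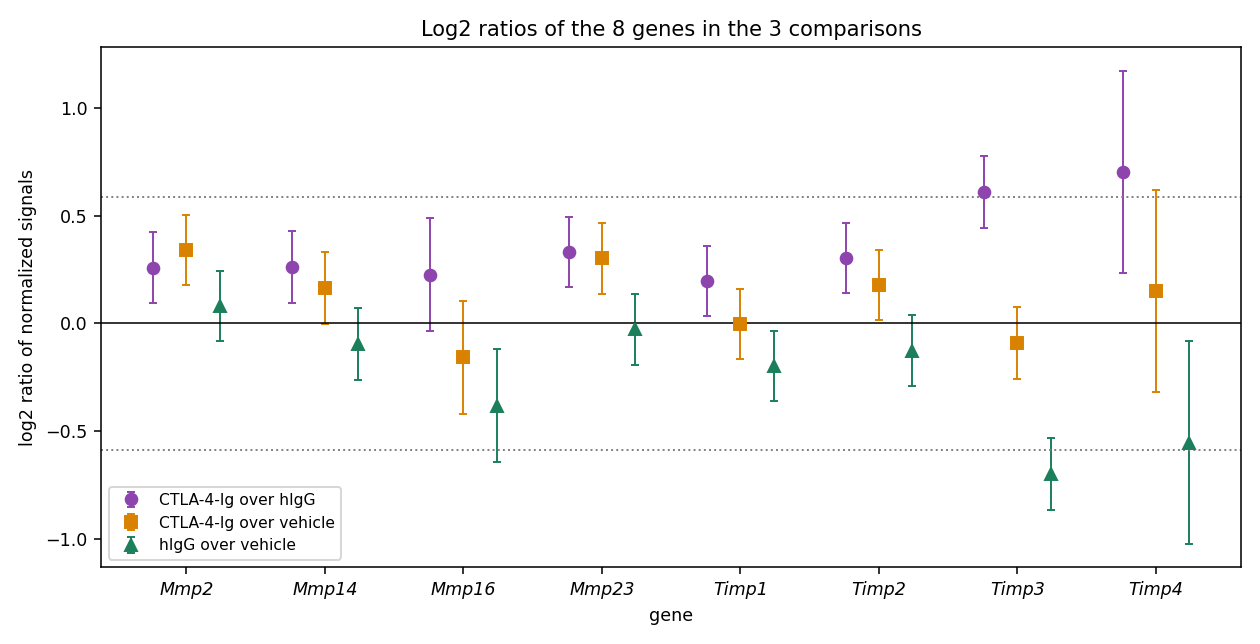
Log2 ratios of normalized signals (vertical axis) of the 8 genes for CTLA-4-Ig/hIgG (circles), CTLA-4-Ig/vehicle (squares) and hIgG/vehicle (triangles). Bars are 1 SD of hIgG/vehicle among probes of the same bin of mean signal, not replicate error, and dotted lines mark 1.5-fold. Timp3 lies beyond the dotted lines at 0.61 and -0.70, and its ratio over vehicle is -0.09.

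Of the enzymes, Mmp2 had a signal of 739 with CTLA-4-Ig, 617 with hIgG and 584 with vehicle. It was highest with CTLA-4-Ig and lowest with vehicle, and the controls lay close together. The log2 ratio was 0.26 for CTLA-4-Ig/hIgG, 0.34 for CTLA-4-Ig/vehicle and 0.08 for hIgG/vehicle, with a yardstick of 0.16 at this signal. With the normexp background correction the ratios of Mmp2 were 0.086 for CTLA-4-Ig/hIgG, -1.81 for CTLA-4-Ig/vehicle and -1.90 for hIgG/vehicle, so the sign was not kept in the last 2. The background column that normexp uses follows the spot signal (log2 r of 0.990 to 0.997 within an array). The same setting gave the reference genes a median of 0.79 for hIgG/vehicle.

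Mmp14, the activator of the Mmp2 proenzyme, had a signal of 89.8 with CTLA-4-Ig, 75 with hIgG and 80.2 with vehicle. The CTLA-4-Ig array was highest and the hIgG array lowest, by log2 ratios of 0.26 for CTLA-4-Ig/hIgG, 0.16 for CTLA-4-Ig/vehicle and -0.10 for hIgG/vehicle. After the shift of all probes is taken off, the first of these was 1.02 times the yardstick of 0.17, so Mmp14 differed between CTLA-4-Ig and hIgG by about as much as probes of its signal differed between the control arrays.

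Mmp23 encodes a metalloprotease that is held in the membrane by its amino end and is shed when cleaved by furin-like convertases. Its signal was 160.3 with CTLA-4-Ig, 127.5 with hIgG and 130.0 with vehicle. The controls were nearly level and the CTLA-4-Ig array stood above both, by 0.33 for CTLA-4-Ig/hIgG and 0.30 for CTLA-4-Ig/vehicle, while hIgG/vehicle was -0.03.

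Mmp16 encodes MT3-MMP, another membrane-type enzyme able to activate the Mmp2 proenzyme. Its probe, which the platform annotates to a non-coding transcript of the gene, gave 7.72 with CTLA-4-Ig, 6.6 with hIgG and 8.6 with vehicle. Vehicle was highest and hIgG lowest, by log2 ratios of 0.23 for CTLA-4-Ig/hIgG, -0.16 for CTLA-4-Ig/vehicle and -0.38 for hIgG/vehicle. The yardstick at this low signal was 0.26.

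The position of the probes on the array moved with these enzyme ratios. The array is printed in 24 blocks, and CTLA-4-Ig/hIgG had a median of 0.22 in block 1 and -0.12 in block 24, the highest and the lowest of the blocks. Mmp2, Mmp14 and Mmp23 all lie in block 2, where the median of all probes was 0.21 for CTLA-4-Ig/hIgG and 0.22 for CTLA-4-Ig/vehicle. With signals centred within blocks, the log2 ratio of CTLA-4-Ig/hIgG was 0.02 for Mmp2, 0.02 for Mmp14 and 0.09 for Mmp23, and that of CTLA-4-Ig/vehicle was 0.11, -0.07 and 0.07 in the same order. After centring, none of these 6 ratios reached the yardstick of 0.16 to 0.17 for the 3 genes. Mmp16 lies in block 24 and its log2 ratio over hIgG was 0.30 after centring. Over all 8 members the centred median was 0.15 for CTLA-4-Ig/hIgG, 0.0027 for CTLA-4-Ig/vehicle and -0.20 for hIgG/vehicle. The centred ratio was above 0 for 8, 4 and 1 of 8 members in the same order.

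**Figure D3:**
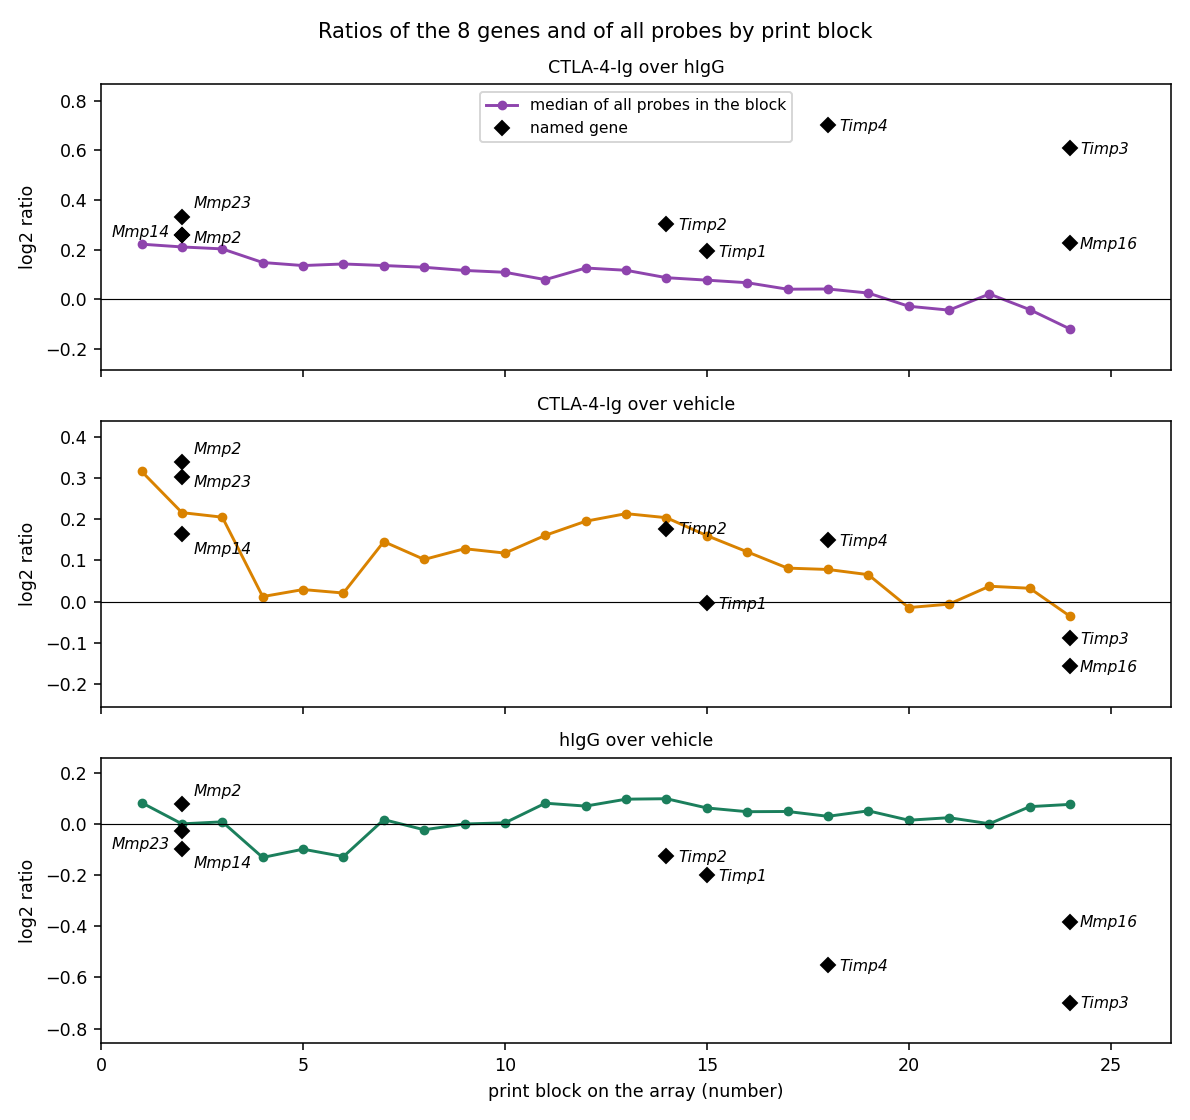
Log2 ratios (vertical axis) by print block number (horizontal axis) in the 3 comparisons, with lines for the median of all probes in a block and diamonds for the 8 genes. Mmp2, Mmp14 and Mmp23 sit near the line in block 2 for CTLA-4-Ig/hIgG, and Timp3 at 0.61 sits far above the block 24 median of -0.12.

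Of the inhibitors, Timp3 differed most among members of good signal. TIMP3 is the inhibitor that binds to extracellular matrix and that, besides metalloproteases, blocks ADAM17 and the aggrecanases. Its signal was 273 with CTLA-4-Ig, 179 with hIgG and 290 with vehicle. The hIgG array stood below both others, and CTLA-4-Ig and vehicle were close. The log2 ratio was 0.61 for CTLA-4-Ig/hIgG (1.53-fold), -0.09 for CTLA-4-Ig/vehicle (0.940-fold) and -0.70 for hIgG/vehicle (0.616-fold). Relative to the median of all probes these were 3.11, -1.16 and -4.32 times the yardstick of 0.17. In its bin of mean signal, 1.34% of probes were 1.5-fold apart either way for CTLA-4-Ig/hIgG and 0.75% for hIgG/vehicle. Timp3 lies in block 24, so centring within blocks gave 0.68 for CTLA-4-Ig/hIgG, -0.06 for CTLA-4-Ig/vehicle and -0.74 for hIgG/vehicle. When hIgG and vehicle were averaged into 1 control, the log2 ratio of CTLA-4-Ig was 0.26. With quantile normalization or cyclic loess Timp3 stood at 0.57 for CTLA-4-Ig/hIgG, short of 1.5-fold, and Timp4 at 0.53 and 0.55. Timp3 was also short of 1.5-fold over hIgG with the joint median (0.50) and with normexp (0.22). With the normexp background correction the hIgG/vehicle ratio of Timp3 was 0.022, so its sign was not kept.

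**Figure D4:**
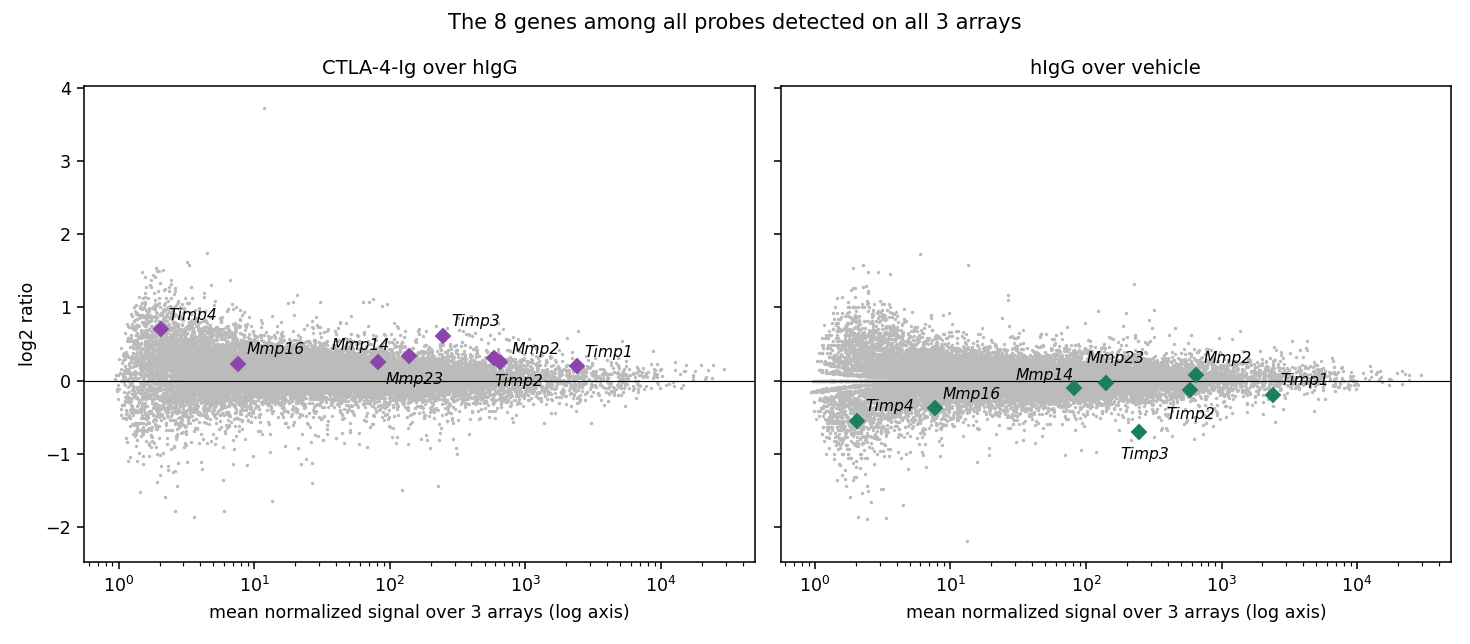
Log2 ratios (vertical axis) against mean normalized signal over the 3 arrays (horizontal log axis) for all probes detected on all 3 arrays (grey) and the 8 genes (diamonds), for CTLA-4-Ig/hIgG on the left and hIgG/vehicle on the right. Timp3, at 0.61 and -0.70, lies at the edge of the probes of its signal in both panels, while Timp4, at 0.70 and -0.55, lies within the wide spread of dim probes.

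Some genes listed as markers of other cells were, like Timp3, lowest with hIgG, and others were not. Of 10 pericyte and smooth muscle markers, 9 were detected on all arrays and Kcnj8 was not, and their summed signal was 3444 with CTLA-4-Ig, 2182 with hIgG and 3264 with vehicle. Acta2, smooth muscle actin, gave 2884 with CTLA-4-Ig, 1804 with hIgG and 2681 with vehicle, a log2 ratio of 0.68 for CTLA-4-Ig/hIgG and -0.57 for hIgG/vehicle. Desmin (Des) was dim, at 1.43, 1.1 and 1.3 (CTLA-4-Ig, hIgG, vehicle), and Rgs5 gave 3.76, 3.7 and 2.7. Dim as well were Myh11, at 3.93, 2.4 and 2.3, and Notch3, at 3.75, 3.7 and 4.4 in the same order. Of the 9, 6 were lowest with hIgG, and most of the summed signal came from Acta2, without which it was 560 with CTLA-4-Ig, 377 with hIgG and 582 with vehicle. Most of that remainder was Tagln, at 473 with CTLA-4-Ig, 302 with hIgG and 508 with vehicle. Of the 8 markers left without Acta2, 5 were lowest with hIgG and 3 with vehicle. Fibroblast markers were lowest with hIgG in 6 of 11 cases, and none of the 10 macrophage markers was. These marker counts stand beside 35% of all detected probes lowest with hIgG. The macrophage markers had a median ratio of -0.06 for CTLA-4-Ig/hIgG and 0.19 for hIgG/vehicle, and all 10 were above the median of all genes in the last comparison. The Fc receptor gene Fcgr1 gave 235 with CTLA-4-Ig, 408.0 with hIgG and 231 with vehicle, and Cx3cr1 gave 48.2, 79.4 and 51.5. Of 5 chondrocyte markers, 4 were detected and Acan was not detected on any array. The summed signal, 987 with CTLA-4-Ig, 713 with hIgG and 947 with vehicle, came mostly from Comp. This cartilage matrix gene, which fibroblasts also express, gave 931 with CTLA-4-Ig, 664 with hIgG and 904 with vehicle and was the only 1 of the 4 that was lowest with hIgG. The defining genes Col2a1 (23.4, 18.7 and 16.1), Sox9 (15.7, 14.3 and 13.9) and Col10a1 (16.2, 15.6 and 13.0) were dim and each lowest with vehicle (values in the order CTLA-4-Ig, hIgG, vehicle). The markers named here were picked after their values were seen. Whether pericytes, smooth muscle cells or chondrocytes were present was not tested. Nor was the part of any of these cells in the Timp3 values.

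Timp1 encodes an inhibitor of most secreted metalloproteases that acts weakly on MT1-MMP. Its signal was 2487 with CTLA-4-Ig, 2172 with hIgG and 2494 with vehicle, so CTLA-4-Ig and vehicle were level and hIgG was lower. The log2 ratio was 0.20 for CTLA-4-Ig/hIgG, -0.0041 for CTLA-4-Ig/vehicle and -0.20 for hIgG/vehicle, with a yardstick of 0.16. After centring within blocks the ratio over hIgG was 0.08 and that over vehicle -0.18.

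Timp2, whose product docks the Mmp2 proenzyme, gave 652 with CTLA-4-Ig, 528 with hIgG and 577 with vehicle. CTLA-4-Ig was highest and hIgG lowest, by log2 ratios of 0.30 for CTLA-4-Ig/hIgG, 0.18 for CTLA-4-Ig/vehicle and -0.13 for hIgG/vehicle. After centring within blocks these were 0.20, 0.07 and -0.14.

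Timp4, a close relative of Timp2, was near the detection limit, at 2.44 with CTLA-4-Ig, 1.5 with hIgG and 2.2 with vehicle. Its spots stood 6.16, 3.42 and 4.54 SDs of the blank spots above the blank mean (CTLA-4-Ig, hIgG, vehicle). The log2 ratio was 0.70 for CTLA-4-Ig/hIgG, 0.15 for CTLA-4-Ig/vehicle and -0.55 for hIgG/vehicle, beside a yardstick of 0.47. Rounding of the deposited control values to 1 decimal alone allows 0.65 to 0.75 for the first ratio. In its bin of mean signal, 22.9% of probes were 1.5-fold apart either way between CTLA-4-Ig and hIgG and 21.3% between hIgG and vehicle, so its place past 1.5-fold is shared with many probes of its brightness.

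Several members overlap other genes in the RefSeq annotation, and the strand of the array probes is not given in the sources used here. Timp1 lies within Syn1, whose own probe gave 3.01 with CTLA-4-Ig, 3.5 with hIgG and 2.0 with vehicle. Timp3 lies within Syn3 and Timp4 within Syn2, and neither of those probes was detected on any array. Cep295nl lies within Timp2 and gave 2.51, 1.6 and 2.2 (CTLA-4-Ig, hIgG, vehicle). Mib2 overlaps Mmp23 in part and gave 17.9, 16.7 and 16.1 in the same order.

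The balance of enzyme and inhibitor was followed in 5 pairs as the log2 ratio of the enzyme minus that of the inhibitor, a difference that cancels a factor common to an array but not one that varies with position on it. Mmp14 and Timp2 had nearly equal ratios before centring, with differences of -0.04 for CTLA-4-Ig/hIgG, -0.01 for CTLA-4-Ig/vehicle and 0.03 for hIgG/vehicle. They lie in different print blocks, and after centring within blocks these were -0.18, -0.13 and 0.05. Mmp2 relative to Timp2 gave -0.04, 0.16 and 0.21 for the same comparisons, and -0.19, 0.04 and 0.23 after centring. Mmp14 relative to Timp3 had the widest difference for CTLA-4-Ig/hIgG and for hIgG/vehicle, at -0.35 for CTLA-4-Ig/hIgG, 0.25 for CTLA-4-Ig/vehicle and 0.60 for hIgG/vehicle, so against hIgG the inhibitor had the larger ratio and against vehicle the enzyme. After centring within blocks they were -0.66, -0.0062 and 0.66, so the CTLA-4-Ig/vehicle difference was near 0. Relative to Timp1, Mmp2 gave 0.06, 0.34 and 0.28, and Mmp14 gave 0.06, 0.17 and 0.10. The 0.34 of Mmp2 was the widest for CTLA-4-Ig/vehicle. Over hIgG both pairs were negative after centring, at -0.07 for Mmp2 and -0.06 for Mmp14. Over members before centring, CTLA-4-Ig/hIgG had a median of 0.26 over the 4 enzymes and 0.46 over the 4 inhibitors. For CTLA-4-Ig/vehicle it was 0.23 over the enzymes and 0.07 over the inhibitors, and for hIgG/vehicle -0.06 and -0.38. The inhibitors were not alike: for CTLA-4-Ig/hIgG before centring, Timp1 (0.20) and Timp2 (0.30) lay near the enzymes. Timp3 (0.61) and Timp4 (0.70), the latter near the detection limit, lay above them. After centring within blocks, Timp2 (0.20) lay above Mmp2 (0.02), Mmp14 (0.02) and Mmp23 (0.09) and below Mmp16 (0.30). Timp1 was then at 0.08, Timp3 at 0.68 and Timp4 at 0.64.

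**Figure D5:**
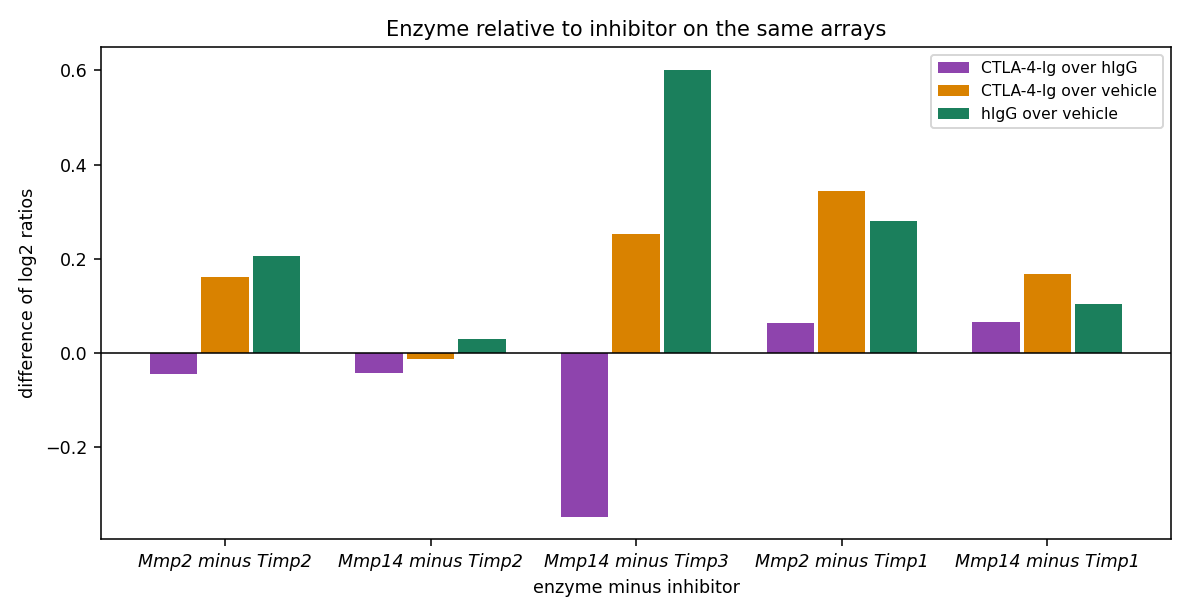
Difference of log2 ratios, enzyme minus inhibitor (vertical axis), for 5 pairs in the 3 comparisons, 1 bar per comparison and no error because each condition had 1 array. Mmp14 minus Timp3 runs from -0.35 for CTLA-4-Ig/hIgG to 0.60 for hIgG/vehicle, while Mmp14 minus Timp2 stays between -0.04 and 0.03, all before centring within blocks.

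Of 20 partners that process, dock, inhibit or clear these enzymes, 16 were detected on all arrays, and their median ratio was 0.19 for CTLA-4-Ig/hIgG, 0.05 for CTLA-4-Ig/vehicle and -0.08 for hIgG/vehicle. The shares of all detected probes given beside the members' counts hold for the lists from here on too, such as 3.58% at least 1.5-fold higher for CTLA-4-Ig/hIgG. Thbs1, encoding thrombospondin-1, a matrix glycoprotein that binds metalloproteases, was the only 1 at least 1.5-fold higher for CTLA-4-Ig/hIgG and gave 381 with CTLA-4-Ig, 212 with hIgG and 360.5 with vehicle. As with Timp3, CTLA-4-Ig and vehicle were close and hIgG was low, at 0.85 for CTLA-4-Ig/hIgG, 0.08 for CTLA-4-Ig/vehicle and -0.77 for hIgG/vehicle. Cd44, a hyaluronan receptor that can anchor MT1-MMP, was 1.5-fold lower for CTLA-4-Ig/vehicle (-0.59), but at signals of 0.997, 0.9 and 1.5 (CTLA-4-Ig, hIgG, vehicle) it was barely detected. Thbs1 and Cd44 were also the 2 partners at least 1.5-fold lower for hIgG/vehicle. The convertase gene Furin, whose product removes the prodomain of MT1-MMP, gave 18.6, 15.8 and 16.0 (CTLA-4-Ig, hIgG, vehicle), the membrane-bound inhibitor gene Reck gave 16.5, 13.4 and 15.2, and the endocytic receptor gene Lrp1 gave 385, 476 and 528. Furin, Reck and Lrp1 were named after their values were seen.

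Among the other membrane-type metalloproteases, Mmp15 was not on the array, Mmp25 was not detected on all arrays, and Mmp17 and Mmp24 were detected. Mmp17 gave 14.2 with CTLA-4-Ig, 13.8 with hIgG and 12.8 with vehicle. Mmp24 was highest on the hIgG array, at 10.1 with CTLA-4-Ig, 12.4 with hIgG and 8.1 with vehicle, log2 ratios of -0.30 for CTLA-4-Ig/hIgG, 0.31 for CTLA-4-Ig/vehicle and 0.61 for hIgG/vehicle.

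Of 15 secreted metalloproteases, 10 were detected on all arrays, and their median ratio was 0.16 for CTLA-4-Ig/hIgG and -0.01 for hIgG/vehicle. Stromelysin 2, encoded by Mmp10, was the only 1 at least 1.5-fold higher over hIgG, at dim signals of 8.69 with CTLA-4-Ig, 4.4 with hIgG and 6.1 with vehicle. In its bin of mean signal, 5.36% of probes were 1.5-fold apart either way for CTLA-4-Ig/hIgG. Mmp3 and Mmp13, stromelysin 1 and collagenase 3, were highest with hIgG and at least 1.5-fold higher for hIgG/vehicle. Mmp3 gave 1199 with CTLA-4-Ig, 1786 with hIgG and 1116 with vehicle, and Mmp13 gave 535, 763 and 497 in that order. Mmp9 was 1.5-fold lower for hIgG/vehicle at dim signals of 3.06, 2.2 and 3.4 (CTLA-4-Ig, hIgG, vehicle). Mmp3, Mmp9 and Mmp13 were named after their values were seen. The study measured Mmp3, Mmp8, Mmp9, Mmp10, Mmp12 and Il6 by qPCR after CTLA-4-Ig or hIgG in replicate mice. It reported no significant alteration of these genes, and no member was among the genes measured by qPCR. For the arrays, too, the study reported no significant change among metalloprotease, chemokine, interleukin and other cytokine genes. Its methods name no test for the arrays.

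Matrix substrates of the enzymes, 13 of 15 detected, had a median ratio of 0.24 for CTLA-4-Ig/hIgG, 0.10 for CTLA-4-Ig/vehicle and -0.17 for hIgG/vehicle. Col4a1 and Vtn, encoding a basement membrane collagen chain and vitronectin, were at least 1.5-fold higher over hIgG. Col4a1 gave 12.4 with CTLA-4-Ig, 8.1 with hIgG and 9.1 with vehicle, and Vtn gave 4.27, 2.7 and 2.1. Vtn was dim. In its bin of mean signal, 9.91% of probes were 1.5-fold apart either way for CTLA-4-Ig/hIgG and 14.5% for CTLA-4-Ig/vehicle. In the plasminogen system, a protease cascade that also acts on metalloprotease proenzymes, 4 of 6 genes were detected. Plg, encoding plasminogen, and Vtn were 2-fold higher for CTLA-4-Ig/vehicle. Plg gave 12.6 with CTLA-4-Ig, 9.3 with hIgG and 6.2 with vehicle.

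Of 17 genes that induce or signal to the system, 16 were detected, and their median ratios were 0.08 for CTLA-4-Ig/hIgG, 0.05 for CTLA-4-Ig/vehicle and 0.05 for hIgG/vehicle. Tnf was 1.5-fold lower for CTLA-4-Ig/hIgG, at 20.6 with CTLA-4-Ig, 31.1 with hIgG and 23.1 with vehicle, so that hIgG was the high array. Tgfb3, named after its values were seen, gave 67.3, 51.9 and 78.5 in that order and was 1.5-fold lower for hIgG/vehicle. None of the 10 detected reference genes was 1.5-fold apart in any comparison. Their log2 ratios of CTLA-4-Ig/hIgG lay between -0.31 for Actb and 0.27 for Tbp, a range that holds the ratios of Mmp2, Mmp14, Mmp16 and Timp1 and leaves out those of Mmp23, Timp2, Timp3 and Timp4.

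Likeness of pattern was measured as the Euclidean distance between log2 signals over the 3 arrays, each gene centred on its own mean, against 8419 genes of at least 25 in mean signal. Timp3 had 3 genes within a distance of 0.05. These were Amotl2 (0.0204), Tagln (0.0401) and Cd207 (0.0410). Amotl2 gave 196 with CTLA-4-Ig, 128 with hIgG and 205 with vehicle. The contractile gene Tagln gave 473, 302 and 508, and Cd207 gave 52.8, 35.8 and 56.0, each lowest with hIgG. The other members had many genes as near, 271 for Mmp2, 270 for Mmp14, 171 for Mmp23, 221 for Timp1 and 173 for Timp2. The nearest were Atg4b, Gstm5 and Usp2 for Mmp2, Stac2, Atg16l2 and Arntl for Mmp14, and Sh3yl1, Fpgs and Eif3j1 for Mmp23. They were Camk2d, Fads2 and Cenpn for Timp1 and Rrbp1, Fzd2 and Tacc2 for Timp2. With 3 arrays such a distance rests on 3 values per gene, and many genes are alike on so few. The log2 signals were centred but not scaled. A gene with large ratios, such as Timp3, therefore has few genes near it whatever its pattern.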

How the data were processed

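Cy5-labelled RNA of 3 cultures, 1 each with CTLA-4-Ig, hIgG and vehicle, was hybridised to 3D-Gene Mouse Oligo chip 24k arrays. The intensity values used are those the authors deposited: background-subtracted spots scaled so that the median of detected spots was 25. The rule for blank spots (mean after dropping 5% at each end, detection 2 SD above it) was worked out here by matching the table. Values of hIgG and vehicle were deposited with 1 decimal. Rebuilding them from the scanned intensity columns gave the same detection for every probe and matched within 0.06 for 19709 of 19710, 19178 of 19179 and 19101 of 19102 detected probes (CTLA-4-Ig, hIgG, vehicle). No column of sample values was left unassigned (0).

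Log2 ratios between single arrays were taken for probes detected on all 3 arrays. Genes were named by the platform annotation, with symbols updated by gene identifier for 20556 probes; 20690 probes had 1 symbol and 2783 had none or several. For ratios, probes of a gene were averaged on the log2 scale. The signals given for a gene with several probes, also within sums, are plain means over its detected probes. The number of arrays limits the precision. Positive control spots, 24 of a kind, had a CV of 6.30% to 13.5%. No test was run on single arrays, and folds of 1.5 and 2 served as calls, and their share among all probes is given beside each count of members.

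The members and lists were chosen with earlier results of these data known. Every member is named, and of each list the genes past 1.5-fold for CTLA-4-Ig/hIgG or over vehicle (at most 4 in each direction), or where none passed, the extremes over hIgG, with the exceptions marked in the text. For each member with a mean signal of at least 25, the 3 nearest genes in pattern are named. Alternatives were the rebuilt signals, normexp background correction (offset 50), quantile, cyclic loess, 75th percentile and joint-median scaling, a pseudocount of 1, mean signals of at least 10 or 25, the brightest probe of a gene, hIgG and vehicle as 1 control, leaving out each member, and centring within print blocks, which was added after the values were seen. Python 3.11.15, numpy 2.4.6, pandas 2.3.3, matplotlib 3.10.9, R 4.3.3 and limma 3.58.1 were used. The code for the ratios was run on simulated arrays with planted folds. The simulation had no trend over print blocks, so it checks the code and not the ratios of these arrays.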

Additional observations from a re-analysis of the deposited data

How the results depend on the processing

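No paired analysis was possible because every condition had a single array. Of the ratios of single members under the alternatives, 175 moved by less than the yardstick and 24 by more, and 1 past 1.5-fold, that of Timp3 for hIgG/vehicle, changed sign. In all 15 had another sign, 12 of them with normexp and 1 each with quantile normalization, cyclic loess and block centring. Leaving out each member in turn gave medians between 0.26 and 0.30 for CTLA-4-Ig/hIgG, 0.15 and 0.16 for CTLA-4-Ig/vehicle and -0.20 and -0.13 for hIgG/vehicle. That range does not cover a shift shared by members of the same print block. With centring within blocks the member medians were 0.15, 0.0027 and -0.20 in the same order. Members at least 1.5-fold apart for CTLA-4-Ig/hIgG numbered 0 with quantile normalization and 0 with cyclic loess, which take off the shift of all genes, and 1 under 4 other settings, which was Timp4 with the joint median (0.60), Timp3 with a pseudocount of 1 (0.61) and at a mean signal minimum of 25, and Timp1 with normexp (0.61). Centring within blocks gave -0.66 for Mmp14 minus Timp3 for CTLA-4-Ig/hIgG and -0.0062 for CTLA-4-Ig/vehicle. Probes 1.5-fold apart (879 for CTLA-4-Ig/hIgG, 1080 for CTLA-4-Ig/vehicle and 721 for hIgG/vehicle) fell in number with a pseudocount of 1 to 405, 508 and 259, at a signal minimum of 10 to 162, 168 and 98, and at a minimum of 25 to 114, 86 and 68. Probes 2-fold apart (125, 162 and 96 in that order) came to 29, 21 and 22, to 17, 6 and 8, and to 10, 2 and 4 under the same settings, so most calls were of dim probes. At that minimum of 25 the inducers' median CTLA-4-Ig/hIgG ratio was 0.26. The normexp correction moved most values, and its background column follows the spot signal (log2 r of 0.990 to 0.997 over probes within an array). It gave, for CTLA-4-Ig/hIgG, a member median of 0.024, 482 probes 1.5-fold and 260.0 2-fold apart, list medians of 0.0016 (partners), 0.017 (substrates) and 0.083 (plasminogen system), and differences of -0.17 for Mmp14 minus Timp3, -0.52 for Mmp2 minus Timp1 and -0.56 for Mmp14 minus Timp1. For CTLA-4-Ig/vehicle it gave 1 member, Mmp2, 1.5-fold and 2-fold apart, 685 probes 2-fold apart, list medians of -0.0022 (other membrane-type), 0.61 (substrates), 0.031 (plasminogen system) and 0.22 (reference genes), and differences of -1.89 for Mmp2 minus Timp2, -0.21 for Mmp14 minus Timp3, -2.39 for Mmp2 minus Timp1 and -0.54 for Mmp14 minus Timp1. For hIgG/vehicle it gave a sign change of Timp3 to 0.022, a member median minus that of all genes of -0.0032, 1 member, Mmp2 (-1.90), and 495 probes 2-fold apart, list medians of 0.010 (other membrane-type), 0.27 (substrates) and 0.79 (reference genes), and differences of -1.99 for Mmp2 minus Timp2, -0.034 for Mmp14 minus Timp3, a sign change, and -1.86 for Mmp2 minus Timp1. The cause was not tested.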
